A study of Homo sapiens with 6 samples.

Results

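Splicing factor genes of 5 families were followed in NOMO-1, a human acute myeloid leukaemia line of monocytic type. The members were all rows of the deposited expression table whose symbol is SRSF followed by a number, or begins with HNRNP, SF3A or SF3B and a digit, PRPF or SNRP, leaving out HNRNPA2B1 and HNRNPC. This gave 68 of the 15059 genes in the table, made up of 11 SRSF, 25 HNRNP, 9 SF3, 12 PRPF and 11 SNRP genes. The HNRNP rows include 7 copies, pseudogenes or read-through entries, namely HNRNPA1L2, HNRNPA1P10, HNRNPA1P33, HNRNPA3P1, HNRNPCL1, HNRNPCL2 and HNRNPUL2-BSCL2. All 68 passed the filter on low values, which kept genes at a signal of 1 or more in 2 or more libraries. RNA was sequenced in 6 libraries, 2 per group. METTL16 rescue cells (sgMETTL16+OE-METTL16) carried a guide RNA against METTL16 and overexpressed METTL16, METTL16 knockout cells (sgMETTL16+EV) carried the same guide and an empty vector, and control cells (sgNS+EV) carried the control guide sgNS and the empty vector. All groups had been transduced with lentivirus and kept in puromycin at 2 µg/ml. The labels state neither whether the knockout cells were 1 clone or a pool nor whether the libraries of a group came from separate cultures, and the p-values then reflect only library-to-library spread, which may be technical.

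Splicing removes introns in steps carried out by the spliceosome, which is built from small nuclear ribonucleoproteins (snRNPs). SRSF proteins, the SR proteins, mostly bind exonic enhancers and promote the use of nearby splice sites, whereas many HNRNP proteins coat nascent transcripts and can repress exons. SF3A and SF3B proteins are parts of the U2 snRNP, which selects the branch point, PRPF proteins act largely in the tri-snRNP of U4, U6 and U5 and in its activation, and SNRP proteins form the Sm ring and the U1 and U2 particles. METTL16 methylates an adenosine of the U6 small nuclear RNA, in the stretch that pairs with the 5′ splice site, and acts on hairpins of the MAT2A messenger RNA.

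The methylated adenosine of U6 lies in a 9-base context, and the same letters were searched in GENCODE 29 transcripts because they tie the enzyme to sequence. UACAGAGAA was present in a transcript of 5 of 68 members (7.35%) and of 603 of 11870 tested genes with a transcript (5.08%). Windows of 4 of these genes are shown here, 1 for each gene, with the 9 bases in capitals.
PRPF3: aacaguguccUACAGAGAAcauggcucgu
HNRNPA3: gagcuucaacUACAGAGAAgugaaggcau
HNRNPDL: uauugguccaUACAGAGAAacuguggucc
SRSF10: aaagcuccauUACAGAGAAaauaauagcu
In PRPF3 the letters stood in 3 of 7 transcripts, 1 of them in coding sequence and 2 in transcripts with no coding sequence. HNRNPA3 (1 of 5 transcripts) and HNRNPDL (3 of 10) held them in the 3′ UTR, and SRSF10 in 1 of 16, a transcript with no coding sequence. A match of letters is no methylation site, and no methylation was measured here.

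Values are RSEM abundances, called the signal, which are per transcript length, so levels can be set side by side between genes. Differences are on the log2(signal + 1) scale, with 1 standard error (SE), and an adjusted p comes from limma, corrected by Benjamini-Hochberg over the 12734 tested genes and called at 0.05. The summed signal of a library ran from 597160 to 681928, and the 4 highest genes took 32.7% to 37.7% of it. Control replicate 2 stood apart, with a median log2 deviation of -0.10 over all tested genes, where the other libraries lay between 0.0024 and 0.040. From the spacing of low values, a signal of 1 was estimated to stand for 46.1 to 50.9 reads on a transcript of 2000 nt. Of 10 myeloid markers 9 were in the table, and their summed signal was 323.9 to 332.3 in rescue, 448.2 to 463.9 in knockout and 254.0 to 281.4 in control libraries. The T cell list had 1 of 3 markers in the table (CD2), summing to 0.640 to 0.794 in rescue, 2.86 to 3.02 in knockout and 0.636 to 0.740 in control. The epithelial list had 2 of 4 (KRT8 and KRT18, sums of 0.744 to 1.34 over the libraries) and the erythroid list 0 of 3. The part of the myeloid difference in the results below was not tested.

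METTL16 (chr17:2405562-2511891, minus strand, GRCh38) checked the labels. It had a signal of 12.3 and 12.1 in rescue, 6.05 and 5.83 in knockout, and 9.89 and 9.63 in control libraries. Both knockout libraries lay below all others. The log2 change was -0.63 in knockout minus control (SE 0.082, adjusted p = 4.76e-05), 0.93 in rescue minus knockout (adjusted p = 3.18e-06) and 0.30 in rescue minus control (adjusted p = 0.175).

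Knockout cells were first set against control cells, to ask which splicing factor transcripts differed with the METTL16 guide. PRPF3, a protein of the U4/U6 particle, showed the smallest adjusted p, and 6 of 9 SF3 genes rose, while no SRSF, SF3 or PRPF gene fell with the values as deposited. Of the 68 members 18 rose and 2 fell, and the other 48 missed the threshold. The share that rose was 26.5%, against 26.2% of all tested genes, and the share that fell was 2.94%, against 13.5% of all tested genes. The difference in the fallen share turned round under 2 of the 3 other scalings. After quantile normalization 36.8% of members and 25.0% of all tested genes had fallen, and after median ratio scaling 42.6% and 27.0%. After rescaling without the 4 highest genes the shares were 14.7% and 15.7%. The count of risen members was near the background. The median log2 change was 0.017 over the members and 0.067 over all tested genes. As these are bulk samples, fewer cells of a type and less RNA per cell cannot be told apart.

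The split between higher and lower calls depended on the scaling between libraries. Of the called members 90.0% were higher in knockout with the values as deposited, 41.9% after quantile normalization (18 risen and 25 fallen), 29.3% after median ratio scaling (12 and 29) and 66.7% after rescaling without the 4 highest genes (20 and 10). Of all tested genes 24.8% rose and 25.0% fell after quantile normalization, 23.0% and 27.0% after median ratio scaling, and 31.5% and 15.7% after rescaling. The all-gene median moved to -0.003, -0.014 and 0.085 under these. Without control replicate 2 the counts were 16 and 12, that is 23.5% and 17.6% of members against 18.6% and 17.7% of all tested genes. Without knockout replicate 1 they were 11 and 1, that is 16.2% and 1.47% of members against 17.2% and 10.3% of all tested genes. Calls of PRPF3, PRPF6, SRSF6, SF3A1, SF3A2, SF3B1, SF3B4 and SNRPB2 were made under all 15 alternatives, and that of HNRNPH2 under the 14 in which it could be tested.

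**Figure D1:**
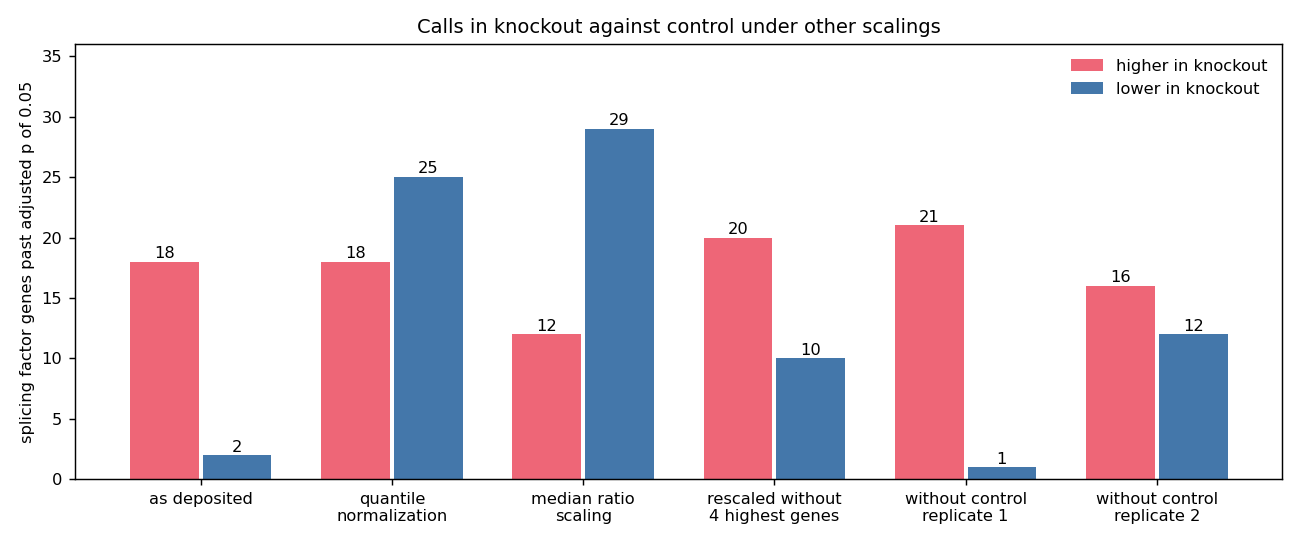
Number of the 68 splicing factor genes past an adjusted p of 0.05 in knockout minus control (vertical axis), as higher (red) or lower (blue) in knockout, for the values as deposited, under 3 other scalings and without each control library. The higher calls number between 12 and 21, and the lower calls between 1 and 29.

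By family, SF3 stood highest. Its median log2 change was 0.18, with 6 of 9 risen (66.7%) and 0 fallen. Risen SF3 genes numbered 5 after quantile normalization, 4 after median ratio scaling and 4 with no trend. The PRPF median was 0.037 with 4 of 12 risen and 0 fallen, and the SRSF median was 0.027 with 2 of 11 risen and 0 fallen, but both of these medians were below 0 in 3 of 16 settings. Fallen genes numbered 3 SRSF, 2 SF3 and 4 PRPF after quantile normalization, and 3, 2 and 5 after median ratio scaling. For HNRNP the median was -0.055, with 4 of 25 risen and 1 fallen, and for SNRP it was -0.044, with 2 of 11 risen and 1 fallen. HNRNP had 4 risen and 10 fallen after quantile normalization and 2 and 12 after median ratio scaling, and SNRP had 3 and 6, and 1 and 7. Without the 7 copies and read-through entries, HNRNP had 2 of 18 risen and 0 fallen, and a median of -0.057. Over the 16 settings the SF3 median was the highest of the 5 in all 16 (0.092 to 0.247), and the HNRNP and SNRP medians were below 0 in all 16. The order of the families is a description with no test.

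Library by library, the SF3 genes had a median log2 deviation from their own mean of -0.023 and 0.029 in rescue, 0.13 and 0.061 in knockout, and -0.062 and -0.15 in control libraries. Both knockout libraries were above the other 4. The HNRNP genes gave 0.076 and 0.075 in rescue, -0.038 and -0.057 in knockout, and 0.032 and -0.055 in control libraries, where knockout and control overlap. SNRP genes were at 0.086 and 0.089 in rescue, -0.026 and -0.077 in knockout, and 0.0050 and -0.077 in control libraries.

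**Figure D2:**
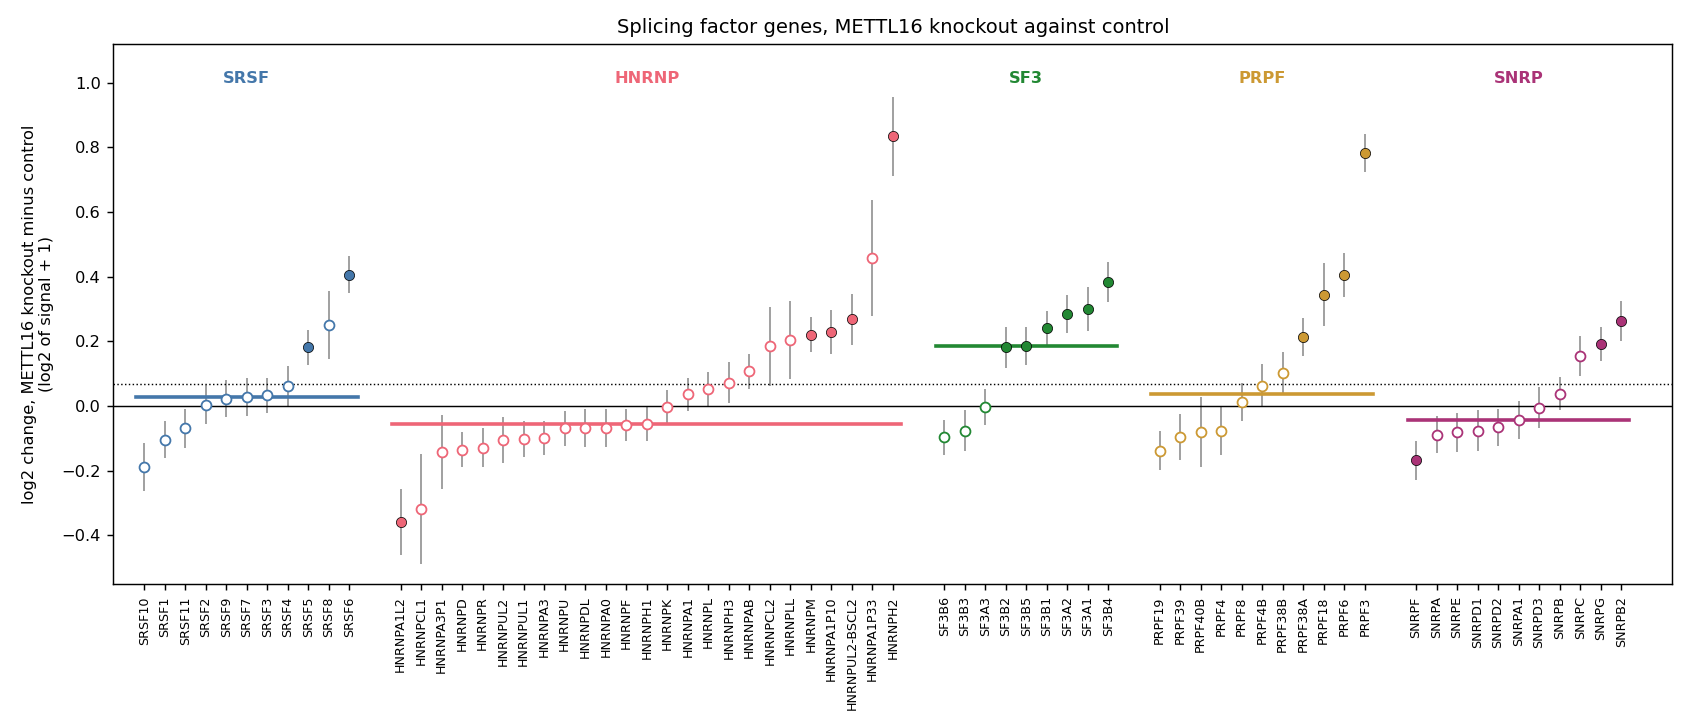
Log2 change in METTL16 knockout minus control (vertical axis, log2 of signal + 1) of the splicing factor genes, 1 PRPF gene not drawn, ordered within 5 families. Bars are 1 standard error, filled points passed an adjusted p of 0.05, thick lines are family medians over all members and the dotted line is the median of all tested genes (0.067). The SF3 median, at 0.18, is the highest, and the SRSF and PRPF medians change sign under 3 of 16 settings.

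Among SF3 genes, levels ran from a mean of 33.2 (SF3B3) to 244 (SF3B1) over all libraries. SF3B4 (chr1:149923317-149928344, minus strand), an RNA-binding subunit of SF3B, had a signal of 38.1 and 38.5 in rescue, 44.4 and 43.6 in knockout, and 34.5 and 32.5 in control libraries. Its knockout libraries were the highest and its control libraries the lowest, and it rose by 0.38 in knockout minus control (SE 0.061, adjusted p = 0.000269). SF3A1 (chr22:30331988-30356947, minus strand), the largest SF3A subunit, had 40.1 and 41.7 in rescue, 46.7 and 44.1 in knockout, and 38.6 and 34.9 in control libraries, a rise of 0.30 in knockout minus control (adjusted p = 0.00295). SF3A2 (chr19:2236504-2248679, plus strand), a subunit that contacts RNA near the branch point, had 63.8 and 65.1 in rescue, 74.6 and 72.7 in knockout, and 62.2 and 58.4 in control libraries, a rise of 0.28 (adjusted p = 0.00153). For both genes every knockout library lay above every control library. SF3B1 (chr2:197389784-197435091, minus strand), the scaffold of SF3B and a gene often mutated in myeloid neoplasms, had 238 and 244 in rescue, 266 and 266 in knockout, and 233 and 217 in control libraries. Again the groups did not overlap, and the rise was 0.24 (adjusted p = 0.00270).

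The other risen members were SF3B2, at 0.18 (adjusted p = 0.0325), and SF3B5, at 0.18 (adjusted p = 0.0210). These calls were made under 8 and 9 of 15 alternatives, with adjusted p up to 0.256 for SF3B2 and 0.271 for SF3B5. Among the settings that ended them, SF3B2 lost its call without control replicate 2, knockout replicate 1 or either rescue library, and SF3B5 without control replicate 1 or either knockout library. Median ratio scaling and the fit with no trend also ended both calls, and quantile normalization ended that of SF3B5. The remaining 3 subunits did not pass the test. SF3A3 was at -0.0032, SF3B3, a large scaffold protein of SF3B, at -0.076, and SF3B6, which lies at the branch point adenosine, at -0.096. Subunits of 1 complex thus had unequal changes, and the ratio of 2 genes within a library does not change with 1 scale factor per library. Quantile normalization is not such a factor and can change it. The ratio of SF3B4 to SF3B3 was 1.09 and 1.10 in rescue, 1.40 and 1.41 in knockout, and 1.00 and 1.02 in control libraries. That of SF3A2 to SF3A3 was 0.778 and 0.804 in rescue, 0.998 and 0.994 in knockout, and 0.828 and 0.799 in control libraries. These pairs were chosen after the values were seen, and the ratios are a description. SF3A1 shares exons with CCDC157 and SF3A2 with PLEKHJ1 on the opposite strand, and no source states that strand was used in counting, so reads of the partners cannot be told apart. The signal of CCDC157 was 0.470 to 0.834 and that of PLEKHJ1 7.20 to 9.31 over the libraries.

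Promoters of SF3 genes are shown because 6 of 9 of these members rose in knockout minus control. RefSeq windows (GRCh38.p14) from 250 bases before to 50 bases after the listed start were matched by symbol for 57 of 68 members and searched on both strands for 7 motifs. They were CCGGAAG, known from ETS factors, the CCAAT box itself, the GC box written GGGCGG, the YY1 motif written ATGGCGG, the core promoter letters TATAAA, the E-box written CACGTG and the cAMP response element written TGACGTCA. None of these motifs contains the letters of another. The last 100 bases before the listed start are given for 4 risen members, with CCGGAAG or its reverse complement in capitals. The windows are SF3B4 at chr1:149927804-149927903 and SF3A1 at chr22:30356895-30356994, both on the minus strand, and SF3A2 at chr19:2236724-2236823 and SF3B2 at chr11:66052264-66052363, both on the plus strand.
SF3B4: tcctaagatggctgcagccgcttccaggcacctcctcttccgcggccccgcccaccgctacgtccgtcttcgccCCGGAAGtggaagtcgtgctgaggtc
SF3A1: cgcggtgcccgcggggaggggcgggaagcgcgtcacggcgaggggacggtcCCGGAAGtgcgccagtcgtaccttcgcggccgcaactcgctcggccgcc
SF3A2: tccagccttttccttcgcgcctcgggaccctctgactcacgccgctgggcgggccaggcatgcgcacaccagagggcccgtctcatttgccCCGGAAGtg
SF3B2: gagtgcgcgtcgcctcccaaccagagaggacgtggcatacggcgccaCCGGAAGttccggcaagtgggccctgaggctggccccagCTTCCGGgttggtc
CCGGAAG was present in 6 of 8 SF3 promoters (75.0%) and in 7 of 10 SNRP promoters (70.0%), against 2 of 8 for PRPF, 2 of 10 for SRSF, 3 of 21 for HNRNP and 22.9% of the promoters of all tested genes. The SF3 genes with the motif were the 4 shown together with SF3A3 and SF3B6, which did not pass the test, and those without it were SF3B1 and SF3B5, which rose. CCAAT was in 18 of 21 HNRNP promoters (85.7%), 1 of 8 SF3 promoters and 43.0% of all. GGGCGG was in 63.2% of member promoters and 75.0% of all, ATGGCGG in 19.3% and 12.9%, TATAAA in 10.5% and 8.09%, CACGTG in 14.0% and 12.8%, and TGACGTCA in 0 of 57 and 3.74%.

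In the PRPF family, levels ran from a mean of 1.73 (PRPF40B) to 89.8 (PRPF8) over all libraries. PRPF3 (chr1:150321476-150353195, plus strand) had a signal of 46.7 and 46.6 in rescue, 70.6 and 72.2 in knockout, and 42.4 and 39.8 in control libraries. The knockout libraries stood far above the other 4, and PRPF3 rose by 0.78 in knockout minus control (SE 0.059, adjusted p = 4.40e-07), between 0.69 and 0.83 over the alternatives. PRPF4, its partner in the U4/U6 particle, had 18.1 and 18.9 in rescue, 17.2 and 16.2 in knockout, and 18.3 and 17.0 in control libraries, a difference of -0.077 in knockout minus control (adjusted p = 0.434). The ratio of PRPF3 to PRPF4, a pair chosen after the values were seen, was 2.58 and 2.47 in rescue, 4.11 and 4.45 in knockout, and 2.32 and 2.34 in control libraries. PRPF6 (chr20:63981135-64033100, plus strand), which bridges the U5 and U4/U6 particles, had 24.4 and 24.3 in rescue, 31.9 and 29.5 in knockout, and 23.7 and 22.1 in control libraries, and rose by 0.41 (SE 0.069, adjusted p = 0.000432). PRPF8, the core protein of the U5 particle and the most abundant of the family, had 90.4 and 90.8 in rescue, 90.6 and 88.9 in knockout, and 93.5 and 84.8 in control libraries. All 3 groups overlapped, with a difference of 0.012 (adjusted p = 0.892).

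PRPF38A, a protein of spliceosome activation, had 40.7 and 40.3 in rescue, 46.0 and 45.4 in knockout, and 40.1 and 38.4 in control libraries, a rise of 0.21 (adjusted p = 0.0110). This call was not made with knockout replicate 1 (adjusted p = 0.0923) or knockout replicate 2 (adjusted p = 0.0604) left out. PRPF18, which acts late in splicing when exons are joined, had 13.9 and 12.7 in rescue, 17.7 and 15.1 in knockout, and 13.9 and 11.6 in control libraries. Its knockout libraries lay above the other 4, and it rose by 0.34 (adjusted p = 0.0124), a call not made with control replicate 2 (adjusted p = 0.136) or knockout replicate 1 (adjusted p = 0.133) left out. The other 6 members lay between -0.14 (PRPF19, a ubiquitin ligase of the spliceosome) and 0.10 (PRPF38B) and did not pass the test. They include the U1-associated PRPF39 and PRPF40B at -0.096 and -0.081, and the kinase PRPF4B at 0.063.

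**Figure D3:**
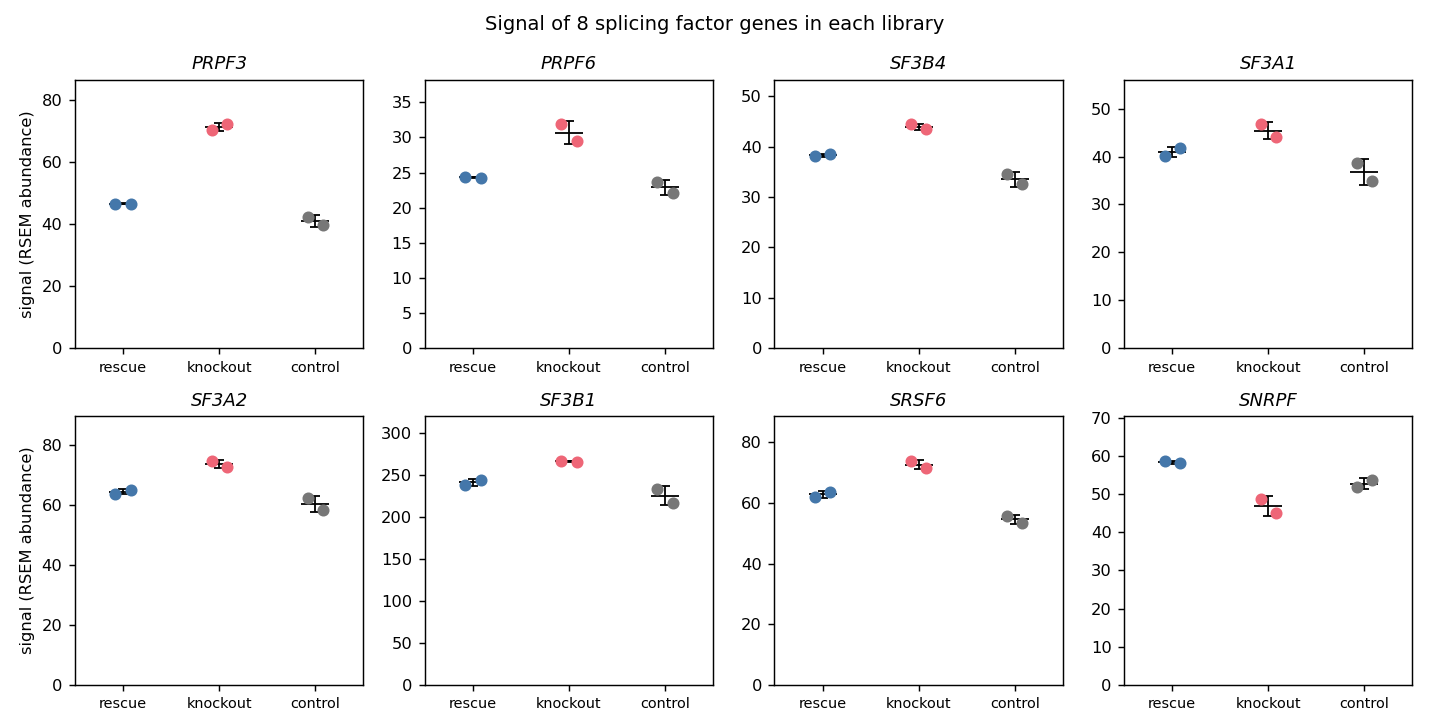
Signal (RSEM abundance, vertical axis from 0) of 8 splicing factor genes in each library of the rescue, knockout and control groups. Coloured points are single libraries, the black dash is the group mean and the bar is 1 SD (n = 2). For 7 genes the knockout libraries are the highest, as in PRPF3 at 70.6 and 72.2, while for SNRPF they are the lowest, at 48.8 and 45.0.

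Among SR proteins, levels ran from a mean of 2.19 (SRSF8, a retrocopy of SRSF2) to 117 (SRSF2) over all libraries. SRSF6 (chr20:43457928-43464247, plus strand) had 62.1 and 63.7 in rescue, 73.8 and 71.6 in knockout, and 55.6 and 53.5 in control libraries, with no overlap between groups. It rose by 0.41 in knockout minus control (SE 0.057, adjusted p = 9.04e-05). SRSF4, its close relative, was at 0.061 (adjusted p = 0.468). The ratio of SRSF6 to SRSF4, again chosen after the values were seen, was 0.954 and 0.958 in rescue, 1.15 and 1.13 in knockout, and 0.860 and 0.928 in control libraries. SRSF5 (chr14:69726900-69772005, plus strand), the other relative of this subgroup, had 89.9 and 93.6 in rescue, 94.6 and 92.2 in knockout, and 83.7 and 80.8 in control libraries, a rise of 0.18 (adjusted p = 0.0174). That call was not made with either knockout library left out, after median ratio scaling (adjusted p = 0.0828) or with no trend (adjusted p = 0.0739). SRSF2, a gene often mutated in myeloid neoplasms, had 126 and 126 in rescue, 117 and 110.0 in knockout, and 119 and 107 in control libraries, where knockout and control overlapped, with a difference of 0.0044 (adjusted p = 0.962). The other 8 members lay between -0.19 (SRSF10) and 0.25 (SRSF8).

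In the SNRP family, levels ran from a mean of 37.0 (SNRPD1) to 280 (SNRPB) over all libraries. SNRPB2 (chr20:16729961-16742563, plus strand), an RNA-binding protein of the U2 particle, had 50.8 and 53.3 in rescue, 58.2 and 56.2 in knockout, and 49.5 and 45.6 in control libraries. Its knockout libraries were the highest, and it rose by 0.26 in knockout minus control (SE 0.062, adjusted p = 0.00434). SNRPA1, its binding partner in that particle, was at -0.044 (adjusted p = 0.586). SNRPG, a protein of the Sm ring, had 110 and 112 in rescue, 108 and 112 in knockout, and 96.9 and 95.2 in control libraries. It rose by 0.19 (adjusted p = 0.0104), a call not made with knockout replicate 2 left out, after median ratio scaling (adjusted p = 0.112) or with no trend. SNRPF, also of the Sm ring, had 58.6 and 58.0 in rescue, 48.8 and 45.0 in knockout, and 51.7 and 53.8 in control libraries. The 2 knockout libraries were the lowest, and it fell by 0.17 in knockout minus control (adjusted p = 0.0413). This call was lost without each library but control replicate 1. It was also lost after rescaling without the 4 highest genes, with no trend and with only the 2 groups compared. The ratio of SNRPG to SNRPF was 1.88 and 1.93 in rescue, 2.22 and 2.48 in knockout, and 1.87 and 1.77 in control libraries. SNRPB, the most abundant Sm protein, had 291 and 290 in rescue, 285 and 271 in knockout, and 274 and 267 in control libraries, a difference of 0.038 (adjusted p = 0.584). The other 7 members, apart from SNRPB, lay between -0.089 (SNRPA) and 0.16 (SNRPC).

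**Figure D4:**
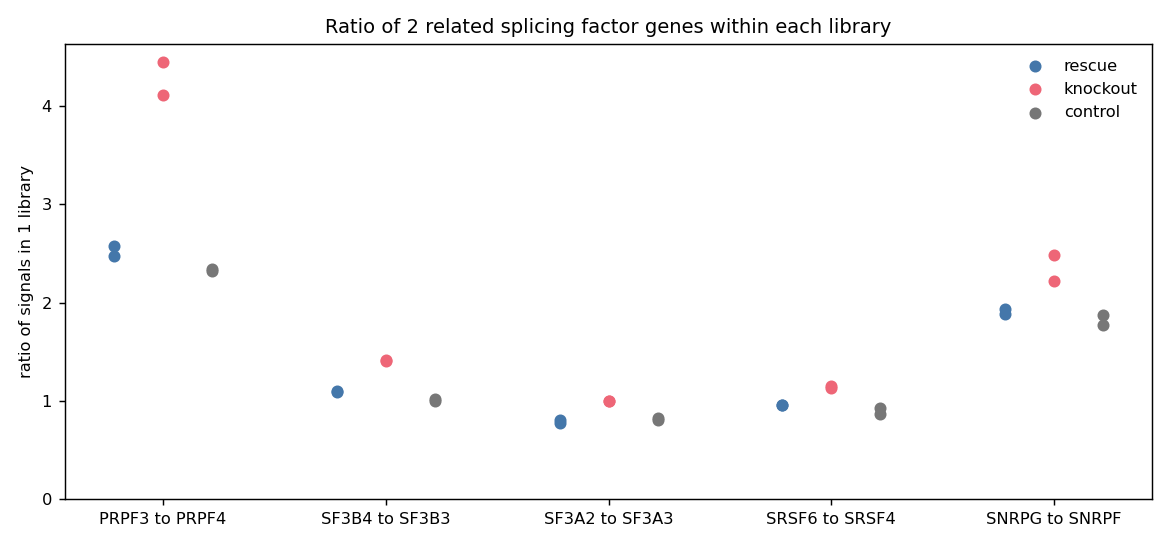
Ratio of the signals of 2 related splicing factor genes within 1 library (vertical axis from 0), for 5 pairs chosen after the values were seen, with 2 libraries each of rescue (blue), knockout (red) and control (grey). The ratio of PRPF3 to PRPF4 is 4.11 and 4.45 in knockout and 2.32 to 2.58 in the other 4 libraries.

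HNRNP genes ran from a mean of 0.749 (HNRNPA1P33) to 345 (HNRNPA1) over all libraries. HNRNPM (chr19:8444767-8489114, plus strand), a regulator of alternative exons, had a signal of 99.7 and 100.1 in rescue, 104 and 98.5 in knockout, and 86.9 and 86.6 in control libraries. It rose by 0.22 in knockout minus control (SE 0.054, adjusted p = 0.00557), a call not made with knockout replicate 1 (adjusted p = 0.0937) left out or after median ratio scaling (adjusted p = 0.0646). HNRNPH2 (chrX:101408295-101414133, plus strand), a paralogue of HNRNPH1, had 4.10 and 3.42 in rescue, 5.56 and 4.55 in knockout, and 2.69 and 2.10 in control libraries. It rose by 0.83 (SE 0.12, adjusted p = 0.000132). This value is uncertain, since HNRNPH2 shares exons with the read-through entry RPL36A-HNRNPH2, whose signal was 53.0 and 53.5 in rescue, 54.5 and 56.9 in knockout, and 54.5 and 48.9 in control libraries. HNRNPH1, with 251 and 264 in rescue, 234 and 235 in knockout, and 250.3 and 237 in control libraries, was at -0.055 (adjusted p = 0.433).

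HNRNPA1, which binds exonic silencers, had 366 and 385 in rescue, 331 and 338 in knockout, and 327 and 325 in control libraries, a difference of 0.036 in knockout minus control (adjusted p = 0.605). Near-identical copies of it were called in opposite directions, and their values are uncertain because reads may be split among them. HNRNPA1L2 had 12.2 and 13.3 in rescue, 8.99 and 10.8 in knockout, and 14.2 and 11.8 in control libraries, and fell by 0.36 (adjusted p = 0.0128), a call not made with control replicate 1 (adjusted p = 0.135) or knockout replicate 1 (adjusted p = 0.141) left out. HNRNPA1P10 rose by 0.23 (adjusted p = 0.0164), a call made under 9 of 15 alternatives. It was lost after quantile normalization, median ratio scaling and rescaling without the 4 highest genes. The fit with no trend and those without control replicate 1 or knockout replicate 1 also ended it. HNRNPUL2-BSCL2, the read-through of HNRNPUL2 into BSCL2, had 10.4 and 10.3 in rescue, 12.1 and 11.4 in knockout, and 9.50 and 9.68 in control libraries, a rise of 0.27 (adjusted p = 0.0157). This call was not made with knockout replicate 1 (adjusted p = 0.184) or knockout replicate 2 (adjusted p = 0.0534) left out. HNRNPUL2, which shares exons with it, was at -0.11 (adjusted p = 0.252). The other 16 members with a gene of their own, HNRNPA1, HNRNPH1 and HNRNPUL2 included, lay between -0.14 (HNRNPD) and 0.20 (HNRNPLL), and the remaining copies between -0.32 (HNRNPCL1) and 0.46 (HNRNPA1P33).

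Rescue minus knockout asked how cells that also overexpressed METTL16 differed from knockout cells. It shares the knockout libraries with the comparison above, so the values of both stand side by side and are not independent. Of the 68 members 17 rose and 8 fell, that is 25.0% risen and 11.8% fallen, against 15.6% risen and 15.9% fallen of all tested genes. The median log2 change was 0.075 over the members and -0.012 over all tested genes. SNRP had 5 of 11 risen and 0 fallen (median 0.15), HNRNP 9 of 25 risen and 1 fallen (0.11), SRSF 1 risen and 1 fallen of 11 (0.099), PRPF 1 risen and 4 fallen of 12 (-0.015) and SF3 1 risen and 2 fallen of 9 (-0.12). In all 16 settings SNRP had the highest median and SF3 the lowest, while the PRPF median was above 0 in 2. The counts were lower with 1 library of either group left out, which leaves that group with 1 library. Risen and fallen members numbered 1 and 2 without rescue replicate 2, 5 and 4 without rescue replicate 1, 4 and 1 without knockout replicate 1, and 8 and 5 without knockout replicate 2. The risen share of members was 1.47%, 7.35%, 5.88% and 11.8% in these 4 fits, against 9.1%, 10.8%, 12.0% and 10.4% of all tested genes, so that it was below the all-gene share in 3 of them. After rescaling without the 4 highest genes the counts were 15 and 16, that is 22.1% and 23.5% of members against 13.5% and 28.6% of all tested genes. With no trend they were 3 and 2, that is 4.41% and 2.94% against 13.4% and 14.5%. Only the rises of HNRNPD, HNRNPA1L2 and SNRPF and the falls of PRPF3 and PRPF6 were kept there, so that all other calls of this comparison were lost with no trend.

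PRPF3 fell by 0.60 in rescue minus knockout (SE 0.059, adjusted p = 9.38e-06), and passed under all 15 alternatives. PRPF6 fell by 0.32 (adjusted p = 0.00315), a call not made with knockout replicate 1 (adjusted p = 0.0512) left out. PRPF18 was at -0.28 (adjusted p = 0.0399), a call not made with no filter, nor with knockout replicate 1 or rescue replicate 2 left out. PRPF38A was at -0.17 (adjusted p = 0.0431), lost without each library of either group, with adjusted p of 0.175 to 0.281. PRPF19 was the member that rose, with 65.1 and 66.6 in rescue, 58.6 and 55.3 in knockout, and 65.2 and 60.4 in control libraries, at 0.21 (adjusted p = 0.0189). This call was not made with knockout replicate 2 (adjusted p = 0.171), rescue replicate 1 (adjusted p = 0.0863) or rescue replicate 2 (adjusted p = 0.165) left out.

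Of the SF3 genes, SF3B4 fell by 0.19 (adjusted p = 0.0267) and SF3A2 by 0.19 (adjusted p = 0.0218). Both calls were lost without each rescue or knockout library, with adjusted p of 0.108 to 0.199 for SF3B4 and 0.0710 to 0.194 for SF3A2. SF3B6 had 214 and 223 in rescue, 186 and 191 in knockout, and 209 and 195 in control libraries. It rose by 0.21 (adjusted p = 0.00882), with the rescue libraries the highest, a call not made with knockout replicate 1 (adjusted p = 0.0543) or rescue replicate 2 (adjusted p = 0.129) left out. SF3A1 and SF3B1 were at -0.15 and -0.14 and did not pass (adjusted p = 0.109 and 0.0566).

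The 5 risen SNRP genes were SNRPF, SNRPE, SNRPD1, SNRPD2 and SNRPA. SNRPF rose by 0.31 (SE 0.061, adjusted p = 0.00179) and passed under all 15 alternatives. SNRPE, of the Sm ring, had 56.0 and 58.4 in rescue, 48.0 and 50.3 in knockout, and 53.5 and 50.6 in control libraries, a rise of 0.21 (adjusted p = 0.0149). SNRPD1, also of the Sm ring, had 39.8 and 40.8 in rescue, 34.8 and 34.0 in knockout, and 37.8 and 34.8 in control libraries, a rise of 0.22 (adjusted p = 0.0162). SNRPD2, likewise of the Sm ring, had 224.3 and 215.5 in rescue, 198.3 and 190.7 in knockout, and 212.8 and 195.1 in control libraries, a rise of 0.18 (adjusted p = 0.0291). SNRPA, an RNA-binding protein of the U1 particle, had 53.2 and 52.7 in rescue, 46.9 and 45.1 in knockout, and 49.4 and 48.6 in control libraries, a rise of 0.20 (adjusted p = 0.0180). In each of these the rescue libraries were the highest. The calls of SNRPD1 and SNRPA were lost without each library of either group (adjusted p of 0.0590 to 0.156, and 0.0619 to 0.179), and that of SNRPE without knockout replicate 1, rescue replicate 1 or rescue replicate 2 (adjusted p = 0.147, 0.0619 and 0.191). SNRPD2 was called under 10 of 15 alternatives, and not with knockout replicate 2, rescue replicate 1 or rescue replicate 2 left out, after quantile normalization or with no trend, with adjusted p up to 0.235.

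Among the 9 risen HNRNP genes, HNRNPD (chr4:82352498-82374503, minus strand), which binds AU-rich elements, had 187 and 193 in rescue, 157 and 163 in knockout, and 182 and 170 in control libraries. It rose by 0.24 (SE 0.055, adjusted p = 0.00413), a call not made with rescue replicate 2 (adjusted p = 0.0621) left out. HNRNPF, which binds G-rich RNA, had 215 and 218 in rescue, 185 and 189 in knockout, and 197 and 192 in control libraries, a rise of 0.21 (adjusted p = 0.00592) that was not made with knockout replicate 1 (adjusted p = 0.0537), rescue replicate 1 (adjusted p = 0.0530) or rescue replicate 2 (adjusted p = 0.0900) left out. HNRNPA3 had 208 and 216 in rescue, 183 and 185 in knockout, and 203 and 191 in control libraries, a rise of 0.20 (adjusted p = 0.00993) that was not made with knockout replicate 1 (adjusted p = 0.0531) or rescue replicate 2 (adjusted p = 0.141) left out. In these 3 the knockout libraries were the lowest. HNRNPA1L2 rose by 0.34 (adjusted p = 0.0201), a call not made after rescaling without the 4 highest genes, nor with knockout replicate 1 or rescue replicate 2 left out. HNRNPA1, HNRNPDL, HNRNPR, HNRNPU and HNRNPUL1 rose by 0.15 to 0.20 and passed under 8 to 10 of 15 alternatives. HNRNPH2 was at -0.35 (adjusted p = 0.0443), and lost its call under 10 of 14 alternatives. Of the SRSF genes, SRSF6 fell by 0.20 (adjusted p = 0.0137), a call not made with knockout replicate 1 (adjusted p = 0.135), rescue replicate 1 (adjusted p = 0.167) or rescue replicate 2 (adjusted p = 0.0892) left out. SRSF1, the founding SR protein, had 106 and 111 in rescue, 94.4 and 94.9 in knockout, and 106 and 98.2 in control libraries, a rise of 0.19 (adjusted p = 0.0185) that was lost without each library of either group (adjusted p of 0.0610 to 0.232).

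Rescue minus control asked what remained different from cells with the control guide. By limma 0 members rose and 0 fell, with 0.228% of all tested genes risen and 0.055% fallen. The smallest adjusted p was 0.115 (HNRNPA1, log2 0.20). At an unadjusted p under 0.05 there were 23 members, 22 of them higher in rescue. This count was not made over all tested genes, so it cannot be read as particular to the members. Of the 68 differences 62 were above 0. Most tested genes were above 0 too, with a first quartile of 0.0024. Without control replicate 2 the all-gene median was 0.001. The median was 0.10 over the members and 0.061 over all tested genes. The family medians were 0.13 for SNRP, 0.12 for SRSF, 0.11 for SF3, 0.10 for HNRNP and 0.055 for PRPF, and the last turned to -0.017, -0.010 and -0.010 under the 3 other scalings. A test that misses the threshold does not show that rescue and control were alike. With the replicate number as a block 6 members rose (8.82%), against 2.35% of all tested genes.

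Other splicing genes, in lists put together by role, were counted in the same fits, with 26.2% of all genes risen and 13.5% fallen in knockout minus control. Unlike the members, the lists were counted only with the values as deposited, and how their counts depend on the scaling was not tested. Of 12 factors of the 3′ splice site and branch point outside the families, 7 rose and 1 fell (median log2 0.20). U2AF1, which reads the AG at the end of introns, averaged 28.1 ± 2.05 in rescue, 42.8 ± 0.977 in knockout and 24.2 ± 1.76 in control libraries (SD, n = 2 each) and rose by 0.80 in knockout minus control (adjusted p = 2.52e-06). It has a near-identical copy, U2AF1L5, and the split of reads between them is uncertain. Summed over both, the signal was 102.7 and 99.3 in rescue, 109 and 107 in knockout, and 95.4 and 89.4 in control libraries. U2AF1L4 rose by 0.72 (adjusted p = 7.33e-05) and U2AF2, which binds the polypyrimidine tract, by 0.24 (adjusted p = 0.00582).

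Of 20 other SR and SR-related genes 8 rose and 1 fell (median 0.091). The one that fell was TRA2A, a splicing activator, at -0.49 (adjusted p = 7.75e-05), while BCLAF1 rose by 0.34 and SON, a core protein of nuclear speckles, by 0.32. Of 10 SR protein kinases and phosphatases 2 rose and 2 fell (median -0.024), with the phosphatase PPP1CA at 0.40, and the SR protein kinases SRPK1 at -0.34 and CLK1 at -0.32. Of 13 spliceosomal helicases and related genes 5 rose and 1 fell (median 0.099), among them DHX38 (0.48), DDX23 (0.38) and DDX5 (0.29). Other U1, U4 and U5 proteins had 5 risen and 2 fallen of 13 (median 0.031), with CD2BP2 at 0.53, SART1 at 0.42 and PPIH at 0.34. In the Prp19 complex and related proteins 5 rose and 1 fell of 15 (median 0.13), with XAB2 at 0.37, RBM22 at 0.35 and CTNNBL1 at -0.37.

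The minor spliceosome had 4 of 10 tested genes risen and 0 fallen (median 0.096), with SCNM1 at 0.69, SNRNP25 at 0.39 and ZRSR2 at 0.37. For snRNP assembly, the SMN complex and its partners, 1 rose and 4 fell of 15 (median -0.091), with GEMIN2 at -0.44, CLNS1A at -0.28 and GEMIN5 at -0.23. Other RNA-binding regulators had 7 risen and 3 fallen of 31 (median 0.027), with RBM5 at 0.58, MBNL1 at 0.35 and TAF15 at -0.33. Nonsense-mediated decay and the exon junction complex had 6 risen and 1 fallen of 16 (median 0.10), with EIF4A3, a core helicase of the junction complex, at 0.40, SMG8 at 0.36 and UPF3A at -0.49. All genes named from these lists passed the test with the values as deposited.

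In rescue minus knockout, which shares the knockout libraries, 7 of 15 snRNP assembly genes rose and 0 fell (median 0.21), against 15.6% and 15.9% of all genes. Minor spliceosome genes had 0 risen and 4 fallen of 10 (median -0.12), and Prp19 genes 1 risen and 3 fallen of 15 (median -0.11). The 3′ splice site list had 3 risen and 2 fallen of 12, SR-related genes 5 and 4 of 20, kinases and phosphatases 1 and 1 of 10, helicases 2 and 3 of 13, other U1, U4 and U5 proteins 5 and 4 of 13, other RNA-binding regulators 5 and 5 of 31, and decay and junction genes 1 and 2 of 16. In rescue minus control no list had a gene past the threshold by limma.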

How the data were processed

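RNA of NOMO-1 cells was sequenced in 6 libraries. Per the labels' protocols, ribosomal RNA was depleted and stranded libraries were prepared with a TruSeq kit. Per the submitters' processing notes STAR, RSEM and GRCh38 were used, with versions not given in the sources used here. The signal values were deposited by the authors as 1 RSEM abundance per gene and library, and whether they are TPM or FPKM is not stated. Whether strand was used in counting is not stated either. Values were used as deposited.

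Of 15059 genes, the 12734 at a signal of 1 or more in 2 or more libraries were tested with limma 3.58.1 in R 4.3.3, with a trend, on log2(signal + 1), fitting the 6 libraries together, with 3 residual degrees of freedom and 11.02 from the prior. Tests are two-sided and adjusted by Benjamini-Hochberg over all tested genes. Adding 1 shrinks the change of genes of low signal. The code was tested on simulated data. Tables were made with Python 3.11.15, pandas 2.3.3, numpy 2.4.6 and matplotlib 3.10.9. Depth was estimated from transcripts of up to 400 nt, where 76.3% to 86.6% of values under 4.5 reads lay within 0.15 of a whole multiple of 1 step, a step chosen for that match. Coordinates are from GENCODE 29, which matched all 68 members, and promoters from RefSeq.

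Members and gene lists were chosen with earlier results of these data known. Named genes were METTL16, per family and comparison the up to 4 members with the smallest adjusted p past 0.05, the most abundant member, and up to 3 genes per other list with the smallest adjusted p in knockout minus control. Other members are named as relatives or to account for all. Alternatives were 3 other scalings, a pseudocount of 0.1, no filter, a mean of at least 5, no trend, a replicate block, each library left out and only the 2 groups compared. Leaving out HNRNP copies was added after seeing the data. Some items are not reported here.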

Additional observations from a re-analysis of the deposited data

How the results depend on the processing

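The direction of the members named as called held under every alternative run for them, but counts of calls and family medians moved with the scaling between libraries and with single libraries, and the cause was not tested. In knockout minus control, fallen members numbered 25 after quantile normalization (36.8%, against 25.0% of all tested genes). They numbered 29 after median ratio scaling (42.6%, against 27.0%) and 10 after rescaling without the 4 highest genes (14.7%, against 15.7%). With a mean signal of at least 5 there were 4 (6.56%, against 17.9%), and with no trend 1 (1.47%, against 12.1%). The replicate block gave 5 (7.35%, against 14.7%), and leaving out HNRNP copies gave 1 (1.64%, against 13.5%). With 1 library left out, 11 to 21 members rose and 1 to 12 fell, and the medians ran from -0.078 to -0.008 for HNRNP, 0.160 to 0.247 for SF3 and -0.020 to 0.095 for PRPF. After quantile normalization the median was -0.028 for SRSF, 0.116 for SF3, -0.023 for PRPF and -0.106 for SNRP, and after median ratio scaling it was -0.065 for SRSF, -0.149 for HNRNP, 0.092 for SF3, -0.054 for PRPF and -0.136 for SNRP.

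In rescue minus knockout, 33 members rose after median ratio scaling (48.5%, against 24.4% of all tested genes). After rescaling without the 4 highest genes 16 fell (23.5%, against 28.6%). With no trend 3 rose and 2 fell (4.41% and 2.94%, against 13.4% and 14.5%). With 1 library left out, 1 to 24 rose and 1 to 10 fell, and the medians ran from 0.049 to 0.141 for SRSF, 0.092 to 0.132 for HNRNP, -0.147 to -0.077 for SF3 and -0.061 to 0.023 for PRPF. Quantile normalization gave medians of 0.060 for SRSF, 0.071 for HNRNP and 0.115 for SNRP, median ratio scaling gave 0.133 for HNRNP, 0.006 for PRPF and 0.174 for SNRP, and rescaling gave 0.027 for SRSF, 0.035 for HNRNP, -0.197 for SF3, -0.085 for PRPF and 0.078 for SNRP. The HNRNP median was 0.134 with a mean signal of at least 5, and likewise 0.134 without HNRNP copies.

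In rescue minus control, 3 of 61 members rose with a mean signal of at least 5 (4.92%, against 2.2% of all tested genes). Of the 68 members, 6 rose with the replicate block (8.82%, against 2.35%) and 3 with only the 2 groups compared (4.41%, against 1.7%). Under the 3 other scalings, a pseudocount of 0.1, no filter and no trend, 0 rose. With 1 library left out, the medians ran from 0.054 to 0.132 for HNRNP, 0.089 to 0.172 for SNRP, 0.012 to 0.101 for PRPF, 0.066 to 0.152 for SF3 and 0.078 to 0.168 for SRSF. Under quantile normalization, median ratio scaling and rescaling, the median was 0.036, 0.056 and 0.057 for SRSF, 0.013, 0.038 and 0.039 for HNRNP, 0.018, 0.045 and 0.046 for SF3, -0.017, -0.010 and -0.010 for PRPF, and 0.056, 0.067 and 0.068 for SNRP.

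Samples of different groups share replicate numbers, but no label says that a number marks a batch, and deviations of same-numbered libraries correlated across genes at -0.011 (knockout and control), 0.101 (rescue and knockout) and -0.048 (rescue and control), so they were not treated as pairs. With the replicate block, 20 members rose and 5 fell in knockout minus control (29.4% and 7.35%, against 28.3% and 14.7% of all tested genes). In rescue minus knockout 18 rose and 9 fell (26.5% and 13.2%, against 17.4% and 17.8%). Where a library was left out, the lone library of its group was taken to vary like the others. Members of low signal, such as HNRNPA1P33 with a mean of 0.749, rest on fewer reads than members of the same length with a higher signal.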
